A study of Mus musculus with 24 samples.

Results

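The chemokines and chemokine receptors of mouse spinal nerve roots were followed from birth to 5 weeks. Members were the genes whose array symbol begins with Ccl or Cxcl and a number, or is Cx3cl1, Xcl1, or a numbered Ccr, Cxcr or Ackr. The rule used symbols only, and 56 of the 37074 gene names on the array met it, with 79 probes. Each gene was represented by its probe with the highest mean over the 24 arrays, and the 38 members that passed the array software's background test in every replicate of 1 group or more were tested.

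Efferent nerve (EN) fibres, taken from the ventral roots, and afferent nerve (AN) fibres, taken from the dorsal roots, came from spinal segments L4 to L6 of C57BL/6 mice. They were collected on the day of birth (P0) and at ages of 1, 3 and 5 weeks (written 1 W, 3 W and 5 W), with 3 one-colour arrays in each of the 8 groups. The mice carried no stated transgene and received no stated treatment. The methods describe more mice than arrays but do not tie mice to arrays, so a p-value here measures the spread between these samples. Signals are given as log2 of the quantile-normalized array intensity, and a gene was called changed where limma gave a Benjamini-Hochberg adjusted p under 0.05 over all 36398 probes tested and the fold was above 2.

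Chemokines are small secreted proteins that steer the migration of leucocytes and other cells. Most are named after the spacing of their first cysteines, as CC, CXC, CX3C or XC ligands. They act through receptors coupled to G proteins (Ccr, Cxcr), whereas the atypical receptors (Ackr) bind ligands without that coupling and transport or remove them. Inflammatory chemokines recruit monocytes, granulocytes and T cells, and homeostatic ones guide cells in development and through lymphoid tissue. In peripheral nerve they are best known for drawing macrophages to injured axons.

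Between 55.1% and 71.7% of gene probes were well above background on an array, and replicate arrays correlated at r = 0.957 to 0.994. Marker genes showed that the roots were mixtures, so in these bulk samples fewer cells of a type and less RNA per cell cannot be told apart. Schwann cell markers were high in every group, with a mean log2 signal per array of 14.6 to 16.95. Sensory neuron markers did not set the roots apart at P0 (EN 11.18 to 11.62, AN 11.02 to 12.55), did so at 1 W (EN 7.27 to 8.77, AN 11.9 to 12.24), and stood at 9.28, 8.94 and 13.35 on the 3 AN arrays of 3 W, so that the third stood apart. Skeletal muscle markers averaged 11.2 to 12.67 in EN and 9.66 to 11.65 in AN at P0, and 9 to 9.67 and 7.73 to 9.5 at 1 W. At 3 W they averaged 10.68 to 11.68 in EN and 10.25 to 13.7 in AN, and at 5 W 9.74 to 11.31 and 8.6 to 13.11. Their part in the results was not tested. Of 5 motor neuron markers 4 were tested, averaging 7.95 to 8.24 in EN and 7.56 to 8.55 in AN at P0. At 5 W they averaged 5.78 to 6.97 in EN and 6.51 to 6.99 in AN. Mnx1, the motor neuron marker not tested, was above background on 0 arrays. Macrophage markers, all 14 of which were tested, averaged 10.2 to 10.49 in EN at P0 and 11.71 to 11.99 at 5 W, against 10.28 to 10.62 and 11.3 to 11.55 in AN. Oligodendrocyte markers averaged 6.5 to 7.19 in EN and 6.18 to 6.64 in AN at P0, and 7.32 to 8.45 and 8.67 to 10.12 at 5 W. For astrocyte markers the ranges were 9.8 to 10.19 and 9.97 to 10.36 at P0, and 9.84 to 10.41 and 10.99 to 11.97 at 5 W. Both lists thus set the roots apart at 5 W, and the part of these cells in the root differences was not tested.

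Chemokine genes accumulated with age in both roots. At 5 W, 16 members were higher and 3 lower than at P0 in EN, and 12 were higher and 4 lower in AN. Over all probes tested, 15.5% were called higher and 14.5% lower in EN at 5 W, and 15.2% and 12.7% in AN. At 3 W, 15 members were higher and 4 lower in EN (16.1% and 14.4% of all probes), and 13 and 3 in AN (15.1% and 12.8%). At 1 W, 7 were higher and 1 lower in EN (6.32% and 5.65% of all probes), and 8 and 1 in AN (4.98% and 3.62%). The median change of the 38 members by 5 W was 0.75 in EN and 0.41 in AN on the log2 scale, whereas that of all probes was 0.04 and 0.03. The 3 comparisons of each root share its P0 arrays. In all, 24 members were called in at least 1 of the 6 comparisons, beside 44.7% of all probes, and the heat map of changes since P0 shows that most of the calls were increases.

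**Figure D1:**
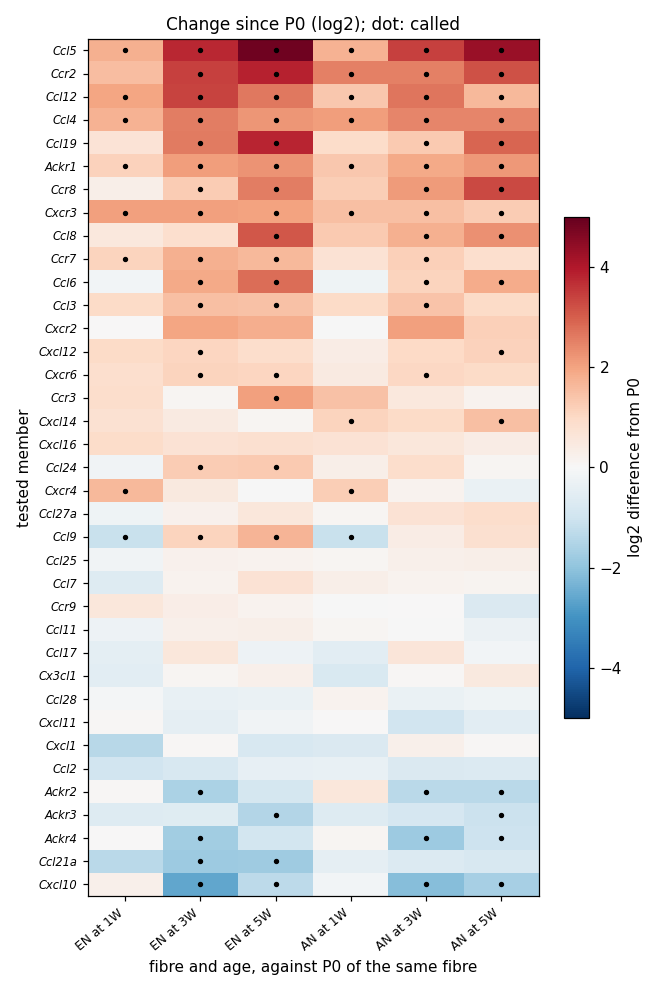
Log2 change since P0 for 37 of the 38 tested members (rows) in EN and AN at 1 W, 3 W and 5 W (columns). Colour gives the change and a dot marks a call; by 5 W there were 16 increases and 3 decreases in EN and 12 increases and 4 decreases in AN.

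The inflammatory CC ligands gave the largest group of increases. Of 16 members 12 were tested, and at 5 W 8 of them had risen in EN (median log2 change 1.57) and 5 in AN (median 0.87), with none lower in either. Macrophage markers were also higher at 5 W, but the 2 sets differed at 1 W. Of the 14, 11 were called higher in EN at 5 W than at P0 and 7 in AN, beside 15.5% and 15.2% of all probes, with 0 lower. In EN at 1 W 9 markers were higher and 2 lower, with a median change of 1.14. For the inflammatory CC ligands 3 were higher and 1 lower there, with a median of -0.16. The part of macrophages in the chemokine changes was not tested.

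Ccl5 (RANTES), which draws T cells and monocytes, changed most. EN signals were 5.50, 5.45 and 4.59 at P0, 6.74, 7.30 and 6.85 at 1 W, 8.98, 9.31 and 8.53 at 3 W, and 9.59, 10.05 and 10.45 at 5 W. AN signals were 5.80, 4.95 and 5.14 at P0, 7.34, 7.37 and 6.33 at 1 W, 8.98, 9.02 and 8.10 at 3 W, and 9.72, 9.15 and 9.92 at 5 W. Each age was thus above the one before without overlap, in both roots. By 5 W the log2 change was 4.85 in EN (28.8-fold, adjusted p = 2.34e-09) and 4.30 in AN (19.7-fold, adjusted p = 1.08e-08). At 1 W it was already 1.78 (SE 0.36) in EN and 1.72 in AN (adjusted p = 0.0012 and 0.00186). At P0 Ccl5 was above background on 2 of 3 arrays of each root, so the size of these changes is uncertain. T and NK cell markers rose over the same ages. Of 10 listed 8 were tested, and 5 were called higher at 5 W in EN and 4 in AN, beside 15.5% and 15.2% of all probes. The mean signal of these markers lay between 6.19 and 6.64 on the EN arrays of P0 and between 7.47 and 7.85 on those of 5 W (AN 5.5 to 6.15, and 6.78 to 7.41). Cd8a and Ncr1 were not tested, and the part of T and NK cells in the Ccl5 signal was not tested.

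Ccl12, a mouse ligand of Ccr2, rose after P0 and had its highest mean at 3 W in both roots. In EN it read 7.88, 7.94 and 7.80 at P0, 9.49, 9.37 and 10.64 at 1 W, 10.96, 11.54 and 11.20 at 3 W, and 10.50, 10.16 and 10.84 at 5 W. In AN the values were 7.66, 8.22 and 7.98, then 8.79, 8.99 and 10.09, then 10.51, 11.23 and 10.09, and at 5 W 9.74, 8.93 and 10.06. No array after P0 overlapped with P0, and the 3 EN arrays of 5 W lay below the 3 of 3 W. For the ages in order the EN change was 1.96 (SE 0.38), 3.36 and 2.63 (adjusted p = 0.000988, 8.77e-07 and 1.25e-05), and the AN change 1.34, 2.66 and 1.62 (adjusted p = 0.0168, 1.38e-05 and 0.00156). The AN call at 1 W was lost without the third AN array of 1 W (0.94, adjusted p = 0.0991) or the first of P0 (1.19, adjusted p = 0.0631). Ccl2, the most studied Ccr2 ligand, was not called at any age, with means of 9.77, 8.81, 8.97 and 9.37 from P0 to 5 W in EN and 9.58, 9.22, 8.84 and 8.90 in AN.

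Ccl6, a mouse CC chemokine made by myeloid cells, did not change at 1 W and then rose. In EN the signal was 9.26, 9.12 and 9.03 at P0, 10.97, 11.02 and 11.13 at 3 W and 11.60, 12.01 and 12.23 at 5 W. In AN it read 9.51, 9.26 and 9.31 at P0, 10.60, 10.80 and 10.02 at 3 W and 10.94, 11.17 and 11.50 at 5 W. All EN arrays at 3 W and 5 W lay above those of AN at the same age. The change by 5 W was 2.81 in EN (7.01-fold, adjusted p = 3.92e-09) and 1.84 in AN (3.58-fold, adjusted p = 9.29e-07), and AN lay 0.74 below EN at 5 W, a difference with adjusted p = 0.0422 but under 2-fold. Without the second AN array of 3 W the AN change at 3 W went from 1.11 to 0.95, under 2-fold. Its neighbour Ccl9 was lower at 1 W in both roots (EN -1.1, AN -1.12, adjusted p = 0.0014 and 0.00142) and higher in EN by 1.13 at 3 W and 1.68 at 5 W.

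Ccl4, an attractant of monocytes and T cells, was near background at P0, where only 1 array of each root was well above it. Its EN values were 4.28, 5.16 and 4.23 at P0 and 6.23, 6.36 and 6.24 at 1 W, and in AN 4.22, 4.99 and 2.66 at P0 and 5.68, 6.36 and 6.08 at 1 W. The change at 1 W was 1.72 (SE 0.48) in EN and 2.08 in AN, and at 5 W 2.20 and 2.45 (adjusted p = 0.000313 for AN at 5 W). Without the third EN array of P0 the EN change at 1 W was 1.55 with adjusted p = 0.0553, and without the third AN array of P0 the AN changes at 1 W and 5 W were 1.44 and 1.8. Ccl3, its close relative, rose in EN at 3 W (1.52, adjusted p = 0.000241) and 5 W (1.45) and in AN at 3 W (1.43), and Ccl24, an eosinophil attractant, rose in EN by 1.25 at 3 W and 1.31 at 5 W.

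Ccl8, a further monocyte attractant, was above background on 0 arrays of P0, so its folds are bounds set against the lowest signal that counted as detected. It read 7.49, 6.87 and 5.81 in EN at 5 W and 5.49, 5.25 and 5.05 in AN at 5 W. All 3 EN values were above all 3 AN values. This made Ccl8 at least 3.13-fold higher at 5 W in EN (adjusted p = 4.53e-05) and at least 1.48-fold higher in AN (adjusted p = 0.000924), where 2 of 3 arrays were above background. The AN call at 3 W (at least 1.03-fold, adjusted p = 0.00705) was lost without the third AN array of 3 W (log2 change 1.14, adjusted p = 0.0533). Leaving out each array, the AN bound at 5 W ran from 1.07-fold without the second AN array of P0 to 2.23-fold without the third.

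**Figure D2:**
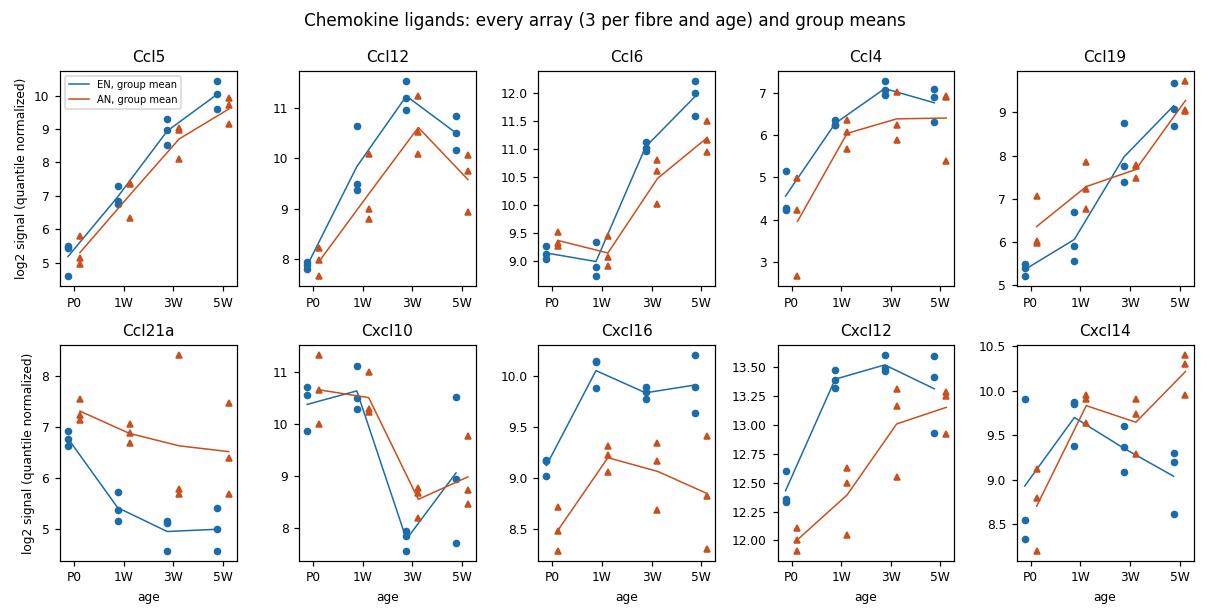
Log2 signal of 10 ligands on each array by age, with blue circles for EN, orange triangles for AN and lines through the means of 3 arrays. Ccl5 climbs at every age, Cxcl10 drops at 3 W, and in the Cxcl16 panel the AN arrays lie below the EN arrays at every age.

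The homeostatic CC ligands Ccl19 and Ccl21a share the receptor Ccr7, which leads dendritic cells and T cells into lymphoid tissue, and went in opposite directions in EN. In EN Ccl19 read 5.48, 5.38 and 5.20 at P0, 8.76, 7.75 and 7.39 at 3 W and 9.08, 8.69 and 9.69 at 5 W. In AN the signal was 7.07, 5.98 and 6.01 at P0, 7.76, 7.78 and 7.49 at 3 W and 9.74, 9.05 and 9.04 at 5 W. At P0 all AN arrays were above all EN arrays, and at 5 W the roots overlapped. Ccl19 was 14-fold higher at 5 W than at P0 in EN (log2 change 3.80, adjusted p = 1.6e-07) and 7.58-fold higher in AN (2.92, adjusted p = 4.21e-06). At P0 Ccl19 was above background on 2 of 3 EN arrays, so the size of the EN change is uncertain. The AN change of 1.32 at 3 W had adjusted p = 0.183 (0.81) with slide as a block.

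Ccl21a in EN went from 6.78, 6.93 and 6.63 at P0 to 4.58, 5.42 and 5.01 at 5 W. Its AN values were 7.25, 7.56 and 7.14 at P0, 5.70, 5.80 and 8.41 at 3 W and 6.40, 7.48 and 5.69 at 5 W. The EN groups did not overlap, and the third AN array of 3 W was apart from the other two, as it was for sensory neuron markers. The log2 change in EN at 5 W was -1.78 (adjusted p = 0.00738), and in AN no change was called. In EN Ccl21a was above background on 2 of 3 arrays at 3 W and 1 of 3 at 5 W, so the size of its fall is uncertain. The EN change of -1.83 at 3 W was -1.15 with slide as a block (adjusted p = 0.284). The mouse genome holds several near-identical Ccl21 genes, so the probe may read more than 1 of them. The remaining homeostatic ligands are Ccl25, Ccl27a and Ccl28, and for them there was no call between roots, or against P0.

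In the CXC family, Cxcl10 (IP-10), an interferon-induced attractant of T cells through Cxcr3, fell. The EN arrays gave 10.55, 9.86 and 10.71 at P0, 10.49, 10.29 and 11.12 at 1 W, 7.83, 7.55 and 7.94 at 3 W, and 8.94, 7.70 and 10.52 at 5 W. The AN arrays gave 10.65, 9.99 and 11.32 at P0, 10.22, 10.29 and 11 at 1 W, 8.77, 8.67 and 8.19 at 3 W, and 8.72, 8.45 and 9.76 at 5 W. The arrays of P0 and 1 W lay above those of 3 W in both roots, and the third EN array of 5 W was back among those of P0. The change at 3 W was -2.60 (SE 0.52) in EN and -2.11 in AN, falls of 6.05-fold and 4.31-fold with adjusted p = 0.000379 and 0.00235. No slide held both P0 and 3 W arrays, so slide and age cannot be told apart there. The slide that held both P0 and 5 W arrays gave -2.59 in EN and -2.20 in AN at 5 W, from the second 5 W array of each root alone, which read lowest of its group. The 5 W calls (EN -1.32, adjusted p = 0.039, and AN -1.67, adjusted p = 0.0116) rested on single arrays. Without the third EN array of 5 W the EN change was -2.05. The EN call was lost without the first array of 5 W (-1.26, adjusted p = 0.0871), the second (-0.64, adjusted p = 0.269), or the first or the third of P0 (-1.23 and -1.15, adjusted p = 0.0955 and 0.119), and the AN call without the second of 5 W (-1.41, adjusted p = 0.0509) or the third of P0 (-1.34, adjusted p = 0.0654). Of the other Cxcr3 ligands, Cxcl9 was not tested, and Cxcl11 was read by 2 probes. The dimmer went from 13.19, 12.96 and 12.87 at P0 to 12.21, 12.07 and 11.76 at 3 W in EN, and from 13.48, 13.05 and 12.93 to 12.56, 10.69 and 11.69 in AN. P0 and 3 W did not overlap in either root, and the change was -0.99 in EN (adjusted p = 0.111) and -1.51 in AN (adjusted p = 0.0207), of which the AN one was called. The brighter probe, which stands for Cxcl11 in the counts, holds a run that recurs in 15 of 32851 mouse promoters. That run is shown in capitals in bases 20 to 49 of the probe. A run of 20 bases of this probe, the same or another, recurs in 6 other probes of the array, so its signal of 16.4 to 18.2 is uncertain.
Brighter Cxcl11 probe: agccaGGGCTACACAGAGAAACCCTatctt

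Cxcl10 and Ccl19 moved in opposite directions with age but hold the same 10 bases near the start of the gene, and Cxcl14 holds a related run. The motif searched was the core of the interferon-stimulated response element, that is GAAA, any 2 bases and GAAA again, on both strands of the 300 bases from 250 before to 50 after each RefSeq gene start (GRCm38.p6). Promoters of 41 of the 56 members were in the table, and Ccl19, Cxcl10 and Cxcl14 were the 3 with a match, beside 3.44% of all 32851 promoters. Counted from the gene start used, the match begins at -208 in Ccl19, -213 in Cxcl10 and -172 in Cxcl14. The Cxcl14 window lies within the span given for that gene, which reaches chr13:56296811, so its match is not upstream of the whole gene. Matches are in capitals in the sequences, which are given on the coding strand (minus) and end 50 bases after the start used.
Ccl19, chr4:42756316-42756615: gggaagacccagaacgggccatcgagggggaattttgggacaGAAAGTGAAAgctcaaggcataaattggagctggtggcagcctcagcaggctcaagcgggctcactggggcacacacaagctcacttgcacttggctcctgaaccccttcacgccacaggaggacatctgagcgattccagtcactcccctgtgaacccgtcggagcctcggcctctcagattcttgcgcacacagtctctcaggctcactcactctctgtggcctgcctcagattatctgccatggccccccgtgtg
Cxcl10, chr5:92348840-92349139: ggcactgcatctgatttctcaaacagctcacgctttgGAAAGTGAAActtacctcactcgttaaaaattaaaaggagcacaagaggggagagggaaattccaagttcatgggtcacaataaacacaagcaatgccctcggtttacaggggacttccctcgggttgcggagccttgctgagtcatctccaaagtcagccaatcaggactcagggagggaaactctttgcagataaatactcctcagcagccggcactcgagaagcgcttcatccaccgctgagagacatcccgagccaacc
Cxcl14, chr13:56296502-56296801: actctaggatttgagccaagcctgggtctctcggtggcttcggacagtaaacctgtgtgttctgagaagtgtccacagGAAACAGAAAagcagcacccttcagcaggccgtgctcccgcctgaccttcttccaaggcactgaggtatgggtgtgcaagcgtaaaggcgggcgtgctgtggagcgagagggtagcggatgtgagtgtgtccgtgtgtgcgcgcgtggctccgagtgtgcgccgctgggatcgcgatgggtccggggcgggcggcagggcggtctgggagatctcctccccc
A match describes these letters and is not a measured binding site. The kappaB run, GGG and TTTCC parted by any 2 bases, searched in the same way, was in the promoters of Ccl9, Ccl20, Ccr3, Cxcl1, Cxcl2 and Cxcl3, 6 members, and in 1.63% of all promoters. The PU.1 core GAGGAAGT was in the Cxcr3 promoter alone of the members, 1 promoter, and in 3.2% of all. Of the 6 members with the kappaB run, Ccl20, Cxcl2 and Cxcl3 were not tested. Ccl9 and Ccr3 were called in at least 1 comparison with P0 and Cxcl1 was not, beside 44.7% of all probes.

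Cxcl12 (SDF-1), the ligand of Cxcr4 and Ackr3 and a guide for developing neurons and their axons, was the member called between the roots at 1 W. EN signals were 12.60, 12.36 and 12.33 at P0, 13.39, 13.47 and 13.32 at 1 W, 13.60, 13.49 and 13.46 at 3 W, and 13.59, 12.93 and 13.41 at 5 W. AN signals were 12, 12.11 and 11.91 at P0, 12.5, 12.63 and 12.05 at 1 W, 13.16, 13.31 and 12.55 at 3 W, and 13.28, 12.92 and 13.25 at 5 W. AN lay below EN without overlap at P0, 1 W and 3 W, and overlapped with it at 5 W. At 1 W the difference was -1.01 (SE 0.2, 2.01-fold, adjusted p = 0.00674), and it was -0.90, -0.84 and -1.28 within the 3 slides. It fell under 2-fold without the third AN array (-0.83, adjusted p = 0.0467) or the second EN array of 1 W (-0.97, adjusted p = 0.0336). Against P0 it rose in EN at 3 W by 1.09 (adjusted p = 0.000134) and by 1.14 in AN at 5 W (adjusted p = 7.76e-05). Both were under 2-fold with slide as a block, at 0.80 and 0.95.

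Another probe of Cxcl12 gave the opposite course with age. The first probe, at chr6:117131227-117131286 (mm9), is annotated with transcripts NM_001012477 and NM_013655, and the other, at chr6:117125026-117125085, with NM_021704. The first 30 bases of each show that they read different parts of the gene.
Cxcl12 probe in the text above: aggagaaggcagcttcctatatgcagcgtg
Other Cxcl12 probe: gctgtaaacctcctaccgtatgtgggaatt
In EN the other probe read 11.36, 10.97 and 11.30 at P0 and 10.41, 10.19 and 10.72 at 5 W, and in AN 10.61, 10.55 and 10.83 at P0 and 9.65, 9.24 and 9.86 at 5 W. It was thus lower at 5 W in both roots, and in AN the fall was called (-1.08, SE 0.19, adjusted p = 0.000131). The signal of the first probe minus that of the other was 1.22 ± 0.18 for EN at P0 and 2.87 ± 0.27 at 5 W, and for AN 1.34 ± 0.24 and 3.57 ± 0.16 (SD, n = 3). The 6 arrays of 5 W were 1.94 above the 6 of P0 in this difference, without overlap. No test is given, because the probe pair was chosen after its values were seen. On the mean of both probes the change in AN at 5 W was 0.03 (adjusted p = 0.899). Between the roots the other probe gave log2 differences of -0.55, -0.98, -0.91 and -0.86 from P0 to 5 W, all under 2-fold (adjusted p = 0.339, 0.00719, 0.00932 and 0.0108).

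**Figure D3:**
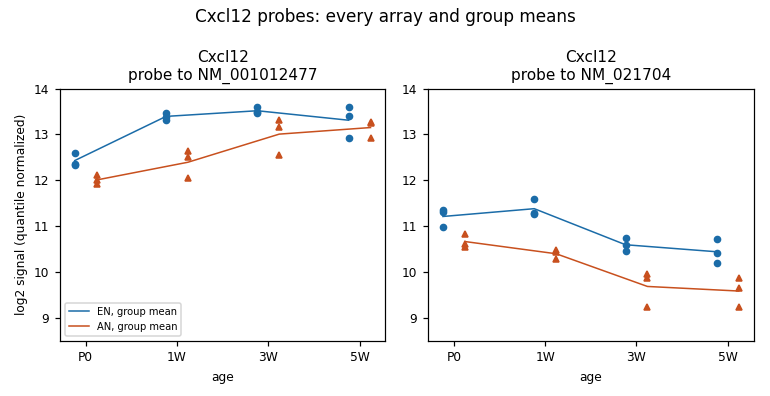
Log2 signal of the 2 probes of Cxcl12 on each array by age, with blue circles for EN, orange triangles for AN and lines through the means of 3 arrays. The probes part with age, with a difference in AN of 1.34 at P0 and 3.57 at 5 W.

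Cxcl16, made as a membrane-bound ligand of Cxcr6 as well as a soluble one, was lower in AN than in EN without overlap at every age. In EN it read 9.02, 9.17 and 9.18 at P0, 9.88, 10.13 and 10.14 at 1 W, 9.84, 9.89 and 9.77 at 3 W, and 9.89, 9.64 and 10.20 at 5 W. In AN it read 8.29, 8.48 and 8.72 at P0, 9.06, 9.23 and 9.31 at 1 W, 9.17, 9.34 and 8.69 at 3 W, and 8.83, 8.31 and 9.41 at 5 W. The difference at 5 W was -1.06 (SE 0.22, 2.08-fold, adjusted p = 0.00558), with -1.06, -1.34 and -0.78 within the 3 slides. At 1 W and 3 W it was -0.85 and -0.77, with adjusted p = 0.0331 and 0.043 but under 2-fold. Without the second AN array of 5 W it was -0.79 (adjusted p = 0.0382) and without the third EN array -0.92 (adjusted p = 0.034), both under 2-fold.

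Cxcl14, a ligand found widely in skin and nervous tissue, was the member higher in AN at 5 W. In EN the signal was 9.91, 8.33 and 8.55 at P0 and 9.30, 8.62 and 9.20 at 5 W, and in AN 9.12, 8.20 and 8.79 at P0 and 9.95, 10.40 and 10.30 at 5 W. The roots overlapped at P0 and not at 5 W, where the difference was 1.17 (SE 0.33, 2.26-fold, adjusted p = 0.0366) and 0.64, 1.78 and 1.1 within the slides. In AN it rose by 1.13 at 1 W (adjusted p = 0.0186) and 1.51 at 5 W (adjusted p = 0.0008). The root difference was lost without the second or the third AN array of 5 W (1.08 and 1.13, adjusted p = 0.133 and 0.0694) or the second or the third EN array (0.97 and 1.25, adjusted p = 0.135 and 0.0639). The AN call at 1 W was lost without the first or second AN array of 1 W (1.09 and 1.07, adjusted p = 0.0584 and 0.0657) or the second of P0 (0.88, adjusted p = 0.0921).

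Differences between the roots were otherwise few. At P0 0 of the 38 tested members were called (0.327% of all probes were). Cxcl12 was the 1 call of 1 W (2.80%), 3 W had 0 (3.13%), and Cxcl14 and Cxcl16 were the 2 of 5 W (3.34%). In the plot of root differences at 5 W, 30 of the 38 members lay below 0, 18 of them by more than 1 SE, and 8 lay above it, 4 of them by more than 1 SE. Ccl11 (eotaxin), which draws eosinophils, was lower in AN by a log2 difference of -0.88 with adjusted p = 0.00547, but under 2-fold. The median log2 difference, taken from P0 to 5 W in order of age, was -0.01, 0.06, -0.13 and -0.35 for the members and 0.01, -0.07, -0.03 and -0.03 for all probes. For the 12 inflammatory CC ligands tested the median at 5 W was -0.73 with 0 called, and for the 14 macrophage markers -0.49 with 0 called. The change of the root difference since P0 was called for 0 members at 1 W, 3 W or 5 W, and for 0.0632%, 0.530% and 0.948% of all probes. Without the third AN array of 3 W, which stood apart for sensory neuron markers, 19 members in place of 16 were called in AN at 3 W against P0. Because that array also enters the common spread, 5 members in place of 2 were then called between the roots at 5 W, and without the second AN array of 5 W 0 were.

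EN and AN arrays with the same number lay on the same slide and deviated together, so the roots were also compared with the pair as a block. The 3 calls remained, and 4 were added. For Ccl19 AN exceeded EN at 1 W by 1.23 (adjusted p = 0.0907 without the block, 0.0227 with it), and Ccl21a at 3 W by 1.68 (adjusted p = 0.0636 and 0.0467). The Ccl21a pairs differed by 0.57, 0.63 and 3.84, so that without the third, whose AN array stood apart, the mean was 0.6, whereas those of Ccl19 differed by 1.31, 1.17 and 1.21. Ccl7, a monocyte attractant, was lower in AN at 5 W by 1.11, with within-slide values of -1.31, -1.53 and -0.50 (adjusted p = 0.0562 and 0.00375). Ccr3 was lower in AN at 5 W, at -0.16, -4.07 and -1.68 within the slides (adjusted p = 0.157 and 0.0392). This made 2, 1 and 4 members called at 1 W, 3 W and 5 W, beside 3.82%, 4.81% and 4.78% of all probes. With the block, 3 changes of the root difference between P0 and 5 W were called as well (Ccl12, Ccl24 and Cxcl14, beside 2.77% of all probes).

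**Figure D4:**
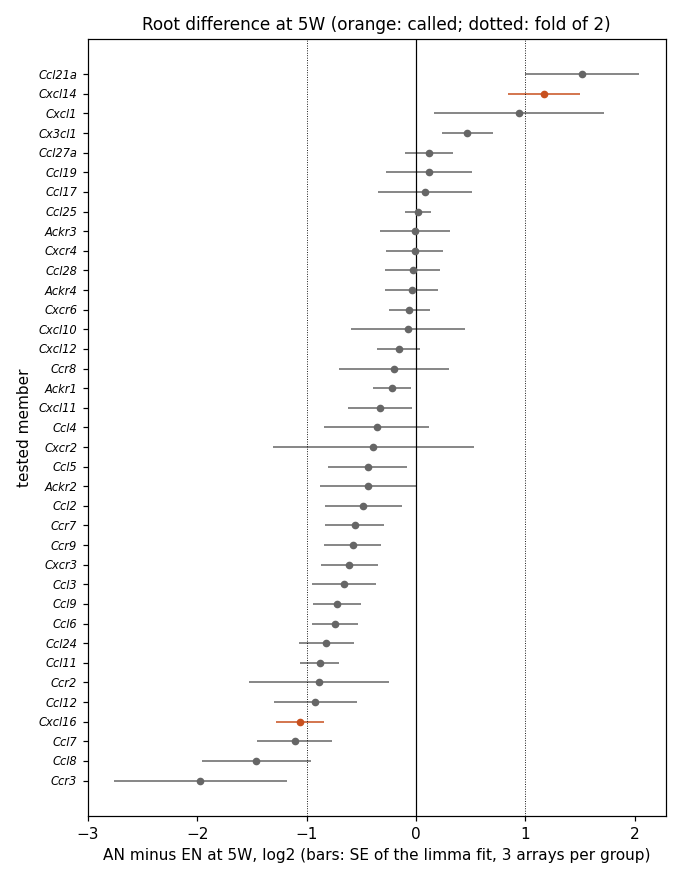
AN minus EN log2 signal at 5 W for 37 of the 38 tested members, with bars of 1 standard error and called members in orange. Cxcl14 lies above 0 at 1.17 and Cxcl16 below it at -1.06, and the median over all 38 was -0.35.

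Receptors for CC ligands rose as well. Of 10 CC receptors 6 were tested, and at 5 W 4 had risen in EN and 2 in AN, beside 15.5% and 15.2% of all probes. Ccr2, which brings monocytes out of the blood, was above background on 0 EN arrays at P0. Its EN values were 4.54, 4.60 and 2.63 at P0, 4.79, 5.18 and 6.46 at 1 W, 8.89, 6.56 and 6.57 at 3 W, and 7.55, 8.15 and 7.60 at 5 W. In AN the signal was 3.73, 4.63 and 2.68 at P0, 5.54, 6.11 and 6.98 at 1 W, 6.17, 6.47 and 5.95 at 3 W, and 6.75, 7.23 and 6.66 at 5 W. Every array at 1 W, 3 W and 5 W was above every P0 array of the same root. Ccr2 was at least 4.80-fold higher at 3 W and at least 6.44-fold higher at 5 W in EN (adjusted p = 0.000203 and 5.54e-05). Without the first EN array of 3 W the bound at 3 W was 2.8-fold. In AN its rise was 2.53, then 2.52, then 3.20 (adjusted p = 0.00806, 0.003 and 0.000377), and the 1 W call was lost without the third AN array of P0 (2.03, adjusted p = 0.0576). At P0 Ccr2 was above background on 1 of 3 AN arrays, so the size of these rises is uncertain. With normexp background correction, which shrinks folds of dim probes, the AN changes at 1 W and 3 W were 0.76 and 0.73 (adjusted p = 0.1 and 0.067).

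Ccr7, the receptor of Ccl19 and Ccl21a, stayed dim. The EN arrays gave 4.22, 4.56 and 4.36 at P0, when it was above background on 0 arrays, and 6.09, 6.34 and 6.05 at 3 W. In EN it was at least 1.32-fold higher at 1 W, at least 2.12-fold at 3 W and at least 1.92-fold at 5 W (adjusted p = 2.2e-05 at 3 W), and in AN it rose by 1.20 at 3 W (adjusted p = 0.00111). Without the first EN array of 1 W its change at 1 W was 0.99, under 2-fold. Ccr8, found on subsets of T cells and monocytes, rose more. EN signals were 4.98, 4.76 and 5.31 at P0 and 7.08, 7.60 and 7.99 at 5 W, and in AN 4.73, 4.74 and 2.63 at P0 and 7, 6.71 and 8.35 at 5 W. Neither root overlapped between the ages, and the changes were 2.54 in EN (5.82-fold, adjusted p = 0.000284) and 3.32 in AN (9.99-fold, adjusted p = 1.85e-05). At P0 Ccr8 was above background on 1 EN and 2 AN arrays, and without the third AN array of P0 the AN change was 2.62 at 5 W and 1.43 at 3 W. At 3 W the changes of 1.28 in EN and 2.13 in AN were 0.24 and 1.1 with slide as a block (adjusted p = 0.813 and 0.243), and the EN one was also lost without the third EN array of 3 W (0.82, adjusted p = 0.2) or the first or the second of P0 (1.26 and 1.15, adjusted p = 0.0755 and 0.101). Ccr3, the eotaxin receptor, was called in EN at 5 W on 1 array. It read 5.11, 8.56 and 4.27 at 5 W against 4.26, 3.70 and 3.80 at P0, at least 1.87-fold (adjusted p = 0.0354), and without the second EN array of 5 W the log2 change was 0.77 (adjusted p = 0.292). The call was also lost without the second or the third EN array of P0 (1.95 and 2, adjusted p = 0.0858 and 0.0811), whereas without the third of 5 W the log2 change was 2.92.

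Among the CXC receptors, Cxcr3, carried by activated T cells and NK cells, rose in both roots by 1 W and stayed there. In EN it read 4.30, 4.09 and 3.85 at P0, 6.16, 6.15 and 6.07 at 1 W, 6.19, 6.30 and 5.95 at 3 W, and 5.78, 6.59 and 5.95 at 5 W. Its AN values were 3.80, 4.13 and 4.77 at P0, 5.39, 6.10 and 5.66 at 1 W, 5.86, 6.02 and 5.29 at 3 W, and 5.38, 5.25 and 5.85 at 5 W. It was above background on 0 arrays of P0, so the folds are bounds. They were at least 2.07, 2.10 and 2.04 in EN and at least 1.87, 1.87 and 1.60 in AN, with adjusted p between 3.26e-06 and 0.00054. Its ligand Cxcl10 moved the other way at 3 W, as given above. Cxcr6, the receptor of Cxcl16, rose from a mean of 6.05 to 7.16 at 3 W and 7.12 at 5 W in EN (adjusted p = 0.000111 at 3 W). The EN change of 1.06 at 5 W was 0.96 without the second EN array of 5 W, and the AN change of 1.02 at 3 W was 0.95, 0.91 and 0.95 without the first AN array of 3 W, the second of 3 W and the second of P0. With the arrays scaled to their 75th percentile these Cxcr6 changes were 0.97, 0.95 and 0.87, so that none passed 2-fold.

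Cxcr4, the signalling receptor of Cxcl12, peaked at 1 W. In EN the signal was 6.31, 5.98 and 6.16 at P0, 7.83, 7.83 and 7.66 at 1 W, 6.52, 6.71 and 6.66 at 3 W, and 5.78, 6.28 and 6.34 at 5 W. The AN arrays gave 6.39, 6.27 and 6.67 at P0, 7.81, 7.47 and 7.75 at 1 W, 6.04, 6.35 and 7.5 at 3 W, and 6.13, 5.92 and 6.32 at 5 W. The 1 W arrays were above all others of EN, and above all of AN except that the third AN array of 3 W, at 7.5, lay among them. The change at 1 W was 1.62 (SE 0.26, 3.08-fold, adjusted p = 0.00017) in EN and 1.23 (2.34-fold, adjusted p = 0.00205) in AN. Within the 2 slides that held both ages it was 1.53 and 1.58 in EN and 1.41 and 1.27 in AN. At 3 W and 5 W no change from P0 was called.

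**Figure D5:**
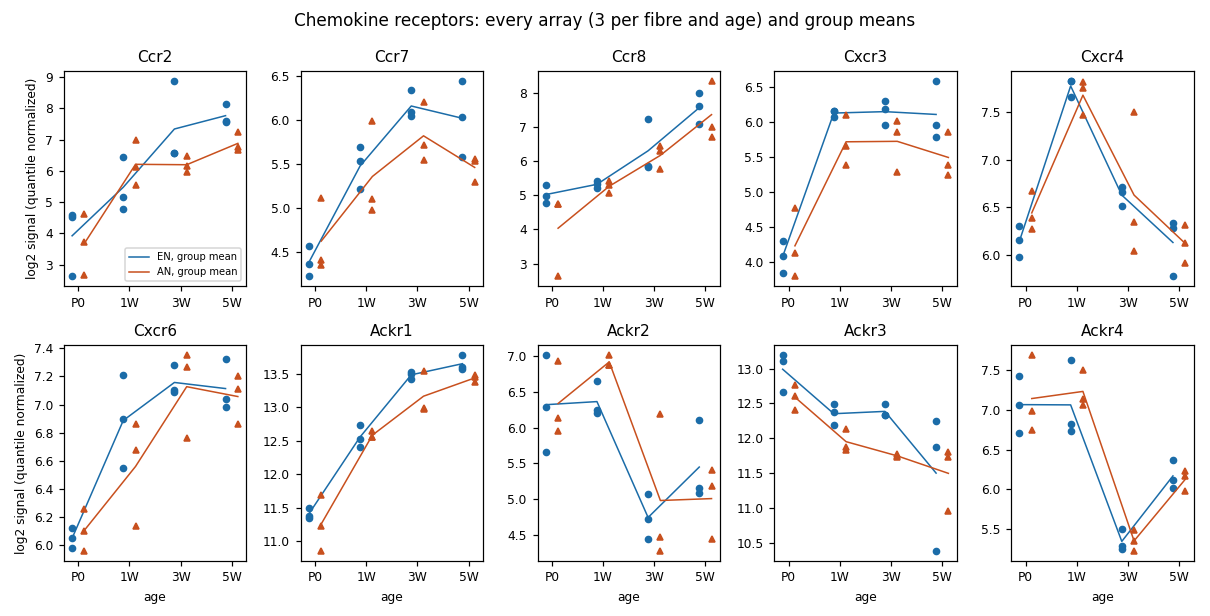
Log2 signal of 10 receptors on each array by age, with blue circles for EN, orange triangles for AN and lines through the means of 3 arrays. Cxcr4 peaks at 1 W, Ackr1 climbs at each age, and Ackr4 is lowest at 3 W.

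All 4 atypical receptors were tested, and they moved in different directions. Ackr1 (the Duffy antigen receptor), which carries chemokines across venular endothelium, rose at every age. Its EN values were 11.49, 11.35 and 11.38 at P0, 12.74, 12.53 and 12.40 at 1 W, 13.53, 13.50 and 13.43 at 3 W, and 13.60, 13.58 and 13.78 at 5 W. AN signals were 11.23, 11.68 and 10.85 at P0, 12.65, 12.55 and 12.55 at 1 W, 12.97, 12.99 and 13.54 at 3 W, and 13.45, 13.38 and 13.49 at 5 W. For the ages in order the change was 1.15, 2.08 and 2.25 in EN (SE 0.17, adjusted p = 3.92e-09 at 5 W) and 1.33, 1.91 and 2.18 in AN (adjusted p = 5.47e-09 at 5 W). A second probe gave 2.30 and 2.23 at 5 W.

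Ackr3 and Ackr4, both scavengers, went down. Ackr3, which clears Cxcl12, read 13.19, 12.67 and 13.11 in EN at P0 and 12.25, 11.87 and 10.39 at 5 W, and in AN 12.60, 12.40 and 12.77 at P0 and 11.74, 10.96 and 11.80 at 5 W. The groups did not overlap, with changes of -1.48 (SE 0.32, adjusted p = 0.000749) in EN and -1.09 (adjusted p = 0.00855) in AN. Without the third EN array of 5 W the EN change was -0.92, and without the second AN array the AN change was -0.82 (adjusted p = 0.0533). Ackr4, which clears Ccl19, Ccl21 and Ccl25, read 7.06, 7.43 and 6.71 in EN at P0 and 5.24, 5.28 and 5.50 at 3 W, and in AN 6.99, 7.69 and 6.75 at P0 and 5.34, 5.22 and 5.48 at 3 W. It was 3.30-fold lower at 3 W in EN (-1.72, SE 0.24, adjusted p = 1.12e-05) and 3.47-fold lower in AN (-1.80, adjusted p = 7.58e-06). At 5 W the AN change was -1.02 (adjusted p = 0.00179), under 2-fold without the third AN array of 5 W (-0.95) or the second of P0 (-0.75). Ackr2, a scavenger of inflammatory CC ligands, fell at 3 W in both roots, with log2 changes of -1.57 in EN and -1.35 in AN (adjusted p = 0.00544 and 0.0149), and in AN at 5 W (-1.33, adjusted p = 0.0165). It was above background on 2 of 3 arrays of each root at P0 and 1 of 3 of each at 3 W. In AN at 5 W it was above background on 2 of 3, so the size of these falls is uncertain. The AN call of 3 W was lost without the first or the second AN array of 3 W (-1 and -1.1, adjusted p = 0.089 and 0.0735) or the second of P0 (-1.06, adjusted p = 0.0778), and that of 5 W without the second AN array of 5 W (-1.05, adjusted p = 0.078) or of P0 (-1.03, adjusted p = 0.0863). Without the third AN array of 3 W the Ackr2 change at 3 W was -1.95. With slide as a block the Ackr2 changes at 3 W had adjusted p = 0.0712 in EN and 0.12 in AN.

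The remaining members did not change or were too dim to test. Cx3cl1 (fractalkine), a membrane-bound ligand of neurons and endothelium, was bright and gave no call, with means of 10.52, 10, 10.59 and 10.76 in EN from P0 to 5 W and 10.77, 10, 10.83 and 11.23 in AN. Its receptor Cx3cr1, a marker of macrophages and microglia that the symbol rule leaves out, rose in EN at 1 W (2.50, adjusted p = 0.000345) and 3 W (1.73, adjusted p = 0.00233) and in AN at 1 W (1.98, adjusted p = 0.00265) and 3 W (1.78, adjusted p = 0.002). Cxcl1, a neutrophil attractant, and its receptor Cxcr2 were not called, and Cxcl1 read 7.22, 6.81 and 2.61 in EN at 5 W. Neutrophil markers were highest on the same array, the third of EN at 5 W, among EN values of 10.35 to 12.14. Background was not exceeded on any array, 0 of 24, by 8 members, namely Ccl20, Ccr1, Cxcl3, Cxcl13, Cxcl15, Cxcl17, Cxcr5 and Xcl1. The other 10 untested members were above it on at most 10 of 24 arrays.

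The members well above background on all 3 arrays of a group numbered 25, 32, 32 and 30 in EN from P0 to 5 W, and 26, 35, 34 and 33 in AN. Over all gene probes EN had shares of 54.2%, 56.7%, 58% and 52.6% and AN of 52.3%, 58%, 58.3% and 58.1%, so that in EN both the members and all probes were fewer at 5 W than at 3 W. The genes lie in clusters. Of the members 14 are on chromosome 11, 11 on chromosome 9 and 11 on chromosome 5 (GRCm38.p6). Of the 12 tested on chromosome 11, which holds most inflammatory CC ligands, 8 had risen at 5 W in EN and 5 in AN with 0 lower. Of the 8 tested on chromosome 9, 4 had risen in EN with 0 lower, and 2 had risen and 2 fallen in AN. On chromosome 5, where most CXC ligands lie, 4 were tested, with 1 higher and 1 lower in EN and 0 and 1 in AN. Of all probes tested, 15.5% were called higher and 14.5% lower at 5 W in EN, and 15.2% and 12.7% in AN.

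Genes around the members were read from fixed lists. Their counts stand beside 15.5% of all probes called higher and 14.5% lower at 5 W in EN, and 15.2% and 12.7% in AN. Of 32 tested genes of chemokine receptor signalling, 7 were higher and 0 lower at 5 W in EN and 6 and 0 in AN. Of 16 tested genes of the NF-kappaB and interferon routes that induce chemokines, 6 were higher at 5 W in EN and 7 in AN with 0 lower, and Il1a and Il6 were above background on 0 arrays. Of 11 tested chemokine genes whose symbols the rule does not match, 4 were higher and 1 lower at 5 W in EN and 3 and 1 in AN. They include the platelet chemokine Ppbp, with a change of 4.75 in EN and 3.98 in AN at 5 W (adjusted p = 0.000144 and 0.000817), and Pf4, another platelet chemokine, with 1.12 in EN (adjusted p = 0.000753) and -0.05 in AN.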

How the data were processed

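RNA of each sample was hybridized to an Agilent one-colour mouse array. The deposited scanner files hold the intensity of each spot as processed by the authors with Agilent Feature Extraction 10.7.1.1. A deposited table holds log2 values that the authors quantile-normalized in GeneSpring, and its columns matched the scanner values at r of 0.999995 or more, with member values within 0.065. Here the intensity was taken to log2 without outlier spots, averaged per probe and quantile-normalized over 56605 gene probes. The 36398 probes (64.3%) well above background on all 3 arrays of a group were fitted with limma 3.58.1 in R 4.3.3, as 1 mean per group over 24 arrays. The fit was tested on simulated data. The fold is a bound where all 3 arrays of a group were within background. The number of arrays limits the precision.

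Members and lists were chosen with earlier results of these data known. Values were given in full for members called between roots, the 12 with the largest change since P0 and a fixed set of ligand-receptor pairs; Ccl3, Ccl7, Ccl9, Ccl11 and Ccl24 were added after their values were seen. Same-numbered EN and AN arrays share a slide and their deviations correlated at 0.11 to 0.66 in all 12 pairs, so they were taken as paired, whereas same-numbered ages did not (-0.26 to 0.38). Alternatives were array scaling, the deposited table, normexp background correction, no filter, unadjusted p, the mean of a gene's probes, slide as a block, array weights, the number as a block and leaving out each array. The values of 1 tested member are not reported here, although it is in the counts.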

Additional observations from a re-analysis of the deposited data

Results flagged for a closer look

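With the pair of EN and AN arrays as a block, 3 members had a root difference at 5 W that was not the same as at P0. For Ccl12 the difference changed by -1 (adjusted p = 0.0308, and 0.552 without the block), for Ccl24 by -1.22 (adjusted p = 0.00956, and 0.125 without the block) and for Cxcl14 by 1.40 (adjusted p = 0.0264, and 0.189 without the block). At 5 W the within-slide differences between AN and EN were -0.76, -1.22 and -0.78 for Ccl12, -0.80, -1.19 and -0.49 for Ccl24, and 0.64, 1.78 and 1.1 for Cxcl14.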

How the results depend on the processing

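No called change of a named member turned its direction under any alternative. Leaving out each array in turn, the members called between the roots numbered 0 to 0 at P0, 0 to 2 at 1 W, 0 to 1 at 3 W and 0 to 5 at 5 W, those called against P0 7 to 12, 18 to 20 and 18 to 20 in EN at 1 W, 3 W and 5 W and 8 to 10, 14 to 19 and 15 to 17 in AN, and the changes of the root difference 0 to 0 at 3 W and 0 to 1 at 5 W. Between the roots at 1 W, where 1 member was called, the count was 0 with the deposited table, normexp or the mean of a gene's probes, 2 with slide as a block, array weights or the replicate block, and 3 with the unadjusted p. At 3 W it was 1 with the unadjusted p or the replicate block. At 5 W, where it was 2, it was 1 with normexp, no filter, the mean of probes or array weights, 4 with the replicate block and 6 with the unadjusted p. The change of the root difference gave 1 call at 3 W with the unadjusted p, and at 5 W 2 with the unadjusted p, 1 with slide as a block and 3 with the replicate block. Against P0 normexp, whose offset of 50 shrinks folds of dim probes by construction, gave 3, 11 and 12 calls in EN in place of 8, 19 and 19, and 2 and 6 in AN at 1 W and 3 W in place of 9 and 16. With the replicate number as a block, for which nothing pairs the ages, EN gave 8, 20 and 19 calls against P0 and AN gave 9, 17 and 16. With slide as a block they were 13 and 11 at 3 W, an age that shared no slide with P0. Members below a log2 signal of 3.71 to 5.87 were not detectable.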
